A study of Mus musculus with 6 samples.

Results

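The genes of the constitutive proteasome were examined in the mouse pheochromocytoma (PHEO) cell lines MTT and MPC. The members were taken by name: 14 subunits of the core, 6 ATPases and 4 further subunits of the base, 8 subunits of the lid, 3 assembly chaperones of the base, and 3 genes for other activators and an inhibitor, 38 genes in all. Of these, 37 had a probe set that the array's annotation assigns to 1 gene symbol, out of 19937 genes tested, and Adrm1, a ubiquitin receptor of the base, had none. For a gene with several probe sets the brightest was used.

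MPC cells were derived from Nf1 knock-out mice, and MTT cells from liver metastases of MPC cells, so the lines share their origin and each is a single line. Neither line was treated. RNA from 3 MTT samples and 3 MPC samples was measured with the Mouse Gene 1.0 ST array of Affymetrix, 1 sample per array, and the signals are log2 values after RMA, a method that corrects for background, gives every array the same distribution of probe values and combines the probes of a set. Whether the 3 samples of each line were grown separately is not stated in any source used here, and the p-values then cover only sample-to-sample spread, which may be technical. The tissue source field of all 6 samples names a liver metastasis and the growth field the MTT line, so the grouping of the MPC samples rests on their titles and cell type field. Of 10 measured chromaffin cell markers 9 lay above the median signal of the genes tested, as did 3 of 26 markers of hepatocytes, adrenal cortex, leukocytes, endothelium and fibroblasts (Apoa2, Col1a1 and Col1a2). Of the chromaffin markers 4 passed limma's test between the lines (adjusted p under 0.05), and of the other 26 none did. This test was passed by 7.87% of all genes tested and 11.6% of genes at least as bright as the dimmest proteasome member. The other 26 had a mean log2 signal between 6.93 and 7.01 on all 6 arrays, against a median of 8.28 for genes tested.

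The proteasome degrades proteins that carry chains of ubiquitin. Its core is a barrel of alpha and beta rings, in which the beta subunits encoded by Psmb5, Psmb6 and Psmb7 hold the proteolytic sites, and the regulatory particle at its ends binds the chains (base), removes them (lid) and unfolds the substrate through a ring of ATPases. Bortezomib, a proteasome inhibitor among the drugs screened on MTT cells, binds mainly the subunit encoded by Psmb5. The comparison asks whether the genes of the complex that this drug targets were expressed at different levels in the metastasis-derived line and its parent line.

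None of the 37 measured members passed limma's test between the lines (adjusted p under 0.05), where 7.87% of all genes tested and 11.6% of the 7885 genes at least as bright as the dimmest member passed. The adjusted p of the members ran from 0.12 to 0.992. At an unadjusted p under 0.05 there were 4 members, with Psma2 higher and Psma1, Psmc6 and Psmd1 lower in MTT cells, 10.8% of the members, against 20.5% of all genes and 28.9% of those as bright. The log2 differences, MTT minus MPC, lay between -0.11 and 0.11, with 19 positive and 18 negative. Their median was 0.0044, and the median over all genes tested was -0.0081. The median absolute log2 difference was 0.027 for the members and 0.050 for all genes, and 0.054 for genes as bright. The signals of the MTT and MPC arrays did not overlap for 6 members (16.2%), where this held for 27.2% of all genes and 41.3% of those as bright. MTT cells were above for Psma2, Psmb5 and Psmd9, as for 11.7% of all genes, and below for Psma1, Psmc6 and Psmd1, as for 15.4%.

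For each member alone, the 95% interval bounds the difference against the spread between these samples, which may be technical. The intervals were not widened for the number of members. For all 37 members the 95% interval of the difference lay within a fold of 1.25 in either direction, which is 0.32 on the log2 scale. On the probe sets used, the lowest bound was -0.20, for Psmc6, and the highest 0.23, for Psmd8. The same was true of 93.6% of all genes tested and 94.3% of those as bright, so the count for the members is read against a background nearly as high. Under a mean-variance trend 4 members passed limma's test (Psma1, Psmc6 and Psmd1 lower, Psma2 higher), where 12.1% of all genes did, and among genes above the median signal 2 passed (Psma1 and Psmc6), where 22.1% did. Without moderation of the variances 0 members passed, where 4.13% of all genes did.

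**Figure D1:**
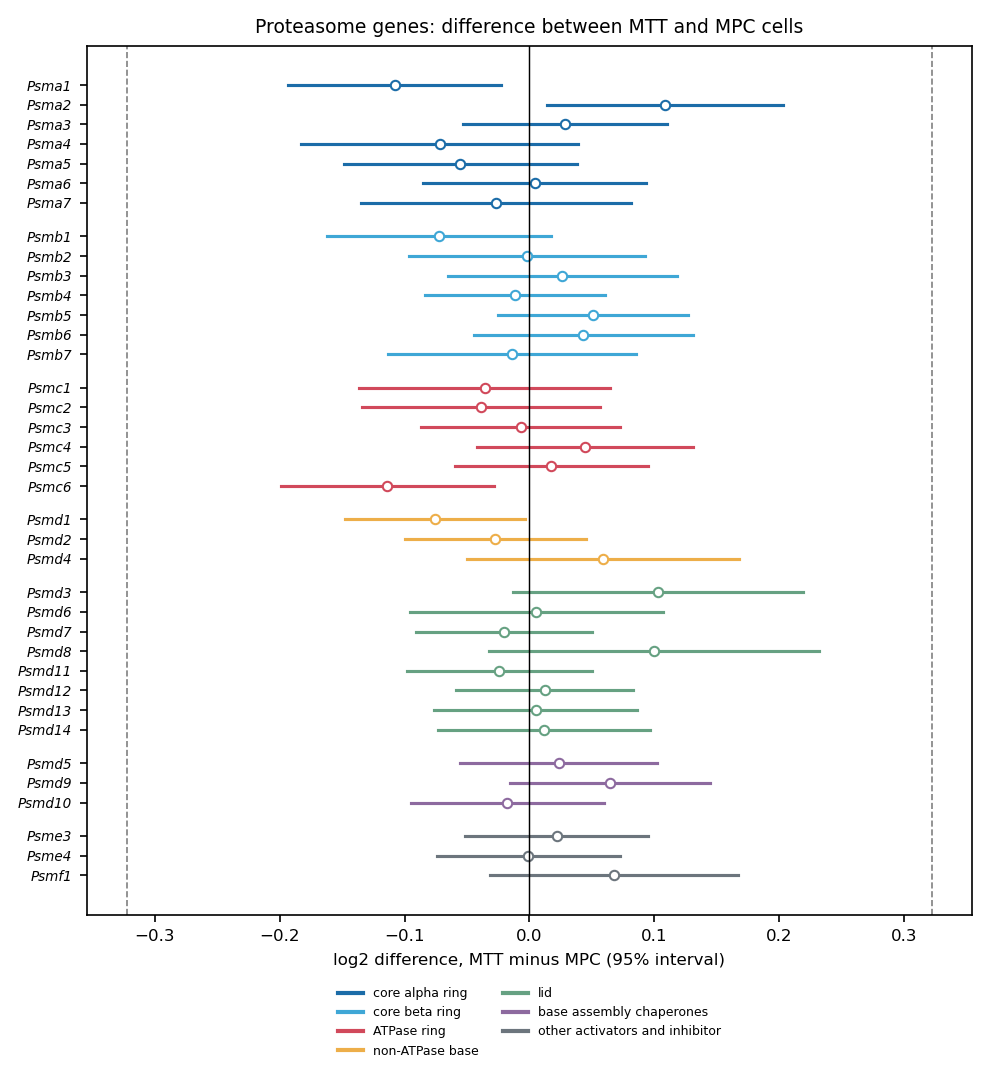
log2 difference between MTT and MPC cells (horizontal axis, MTT minus MPC) of the 37 measured proteasome genes (vertical axis), with 95% intervals from limma, coloured by part of the complex. Open points did not pass the test, as was the case for all 37, and dashed lines mark a fold of 1.25 (0.32 on the log2 scale), which no interval reaches.

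The catalytic subunits of the core are described in full because they are the sites at which proteasome inhibitors act. Psmb5, which encodes the chymotrypsin-like subunit, had log2 signals of 12.72, 12.75 and 12.70 on the MTT and 12.65, 12.67 and 12.69 on the MPC arrays. The MTT arrays were all above the MPC arrays, but by little, and the difference of 0.050 (95% interval -0.026 to 0.13) did not pass limma's test (adjusted p = 0.446). Psmb6, which encodes the caspase-like subunit, had log2 signals of 11.68, 11.69 and 11.59 in MTT and 11.62, 11.63 and 11.58 in MPC cells. The groups overlapped, with a difference of 0.043 (95% interval -0.045 to 0.13, limma adjusted p = 0.595). Psmb7, for the trypsin-like subunit, read 11.98, 11.97 and 11.92 in MTT and 11.98, 12.03 and 11.90 in MPC cells. Its MPC arrays spanned the whole range of the MTT arrays, and the log2 difference was -0.014 (95% interval -0.11 to 0.085, limma adjusted p = 0.906).

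Promoters are shown for both of these catalytic genes whose sequence was at hand, for the members with the 2 lowest differences and the highest, and for Pomp, an assembly factor described below. Each run is the 250 bases before the start of the gene in RefSeq (GRCm38.p6), read in the direction of the gene, at chr14:54617996-54618245 (minus strand) for Psmb5, chr11:70525107-70525356 (plus) for Psmb6, chr7:114276117-114276366 (minus) for Psma1, chr13:14612992-14613241 (plus) for Psma2, chr14:45329574-45329823 (plus) for Psmc6 and chr5:147860378-147860627 (plus) for Pomp. Capitals mark matches, on either strand, to the motifs CCGGAAG (the core of ETS factor sites), TGACNNNGC (the core of the antioxidant response element, which Nfe2l1 and Nfe2l2 bind), CCAAT (the NF-Y box) and the interferon-stimulated element, searched as GAAA followed after any 2 bases by GAAA, of which these 6 runs hold none.
Psmb5: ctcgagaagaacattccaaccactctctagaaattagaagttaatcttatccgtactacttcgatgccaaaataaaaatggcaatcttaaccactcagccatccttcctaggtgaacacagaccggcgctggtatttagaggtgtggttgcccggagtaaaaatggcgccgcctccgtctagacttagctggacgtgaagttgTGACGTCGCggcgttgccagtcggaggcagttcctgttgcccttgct
Psmb6: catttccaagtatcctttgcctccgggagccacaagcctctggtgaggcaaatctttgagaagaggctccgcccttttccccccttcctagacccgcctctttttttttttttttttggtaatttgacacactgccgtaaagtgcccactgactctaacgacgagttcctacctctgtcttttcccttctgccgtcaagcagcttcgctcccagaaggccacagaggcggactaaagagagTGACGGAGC
Psma1: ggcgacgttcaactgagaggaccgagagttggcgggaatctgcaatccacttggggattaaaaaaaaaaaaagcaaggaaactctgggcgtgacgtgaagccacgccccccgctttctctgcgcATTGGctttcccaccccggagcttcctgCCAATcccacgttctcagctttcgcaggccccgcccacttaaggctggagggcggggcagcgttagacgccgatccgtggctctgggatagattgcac
Psma2: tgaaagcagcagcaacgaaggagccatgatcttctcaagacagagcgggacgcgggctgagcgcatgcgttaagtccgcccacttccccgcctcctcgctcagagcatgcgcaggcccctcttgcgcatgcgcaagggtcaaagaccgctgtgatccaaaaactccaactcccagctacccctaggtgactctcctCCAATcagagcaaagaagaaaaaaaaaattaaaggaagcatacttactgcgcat
Psmc6: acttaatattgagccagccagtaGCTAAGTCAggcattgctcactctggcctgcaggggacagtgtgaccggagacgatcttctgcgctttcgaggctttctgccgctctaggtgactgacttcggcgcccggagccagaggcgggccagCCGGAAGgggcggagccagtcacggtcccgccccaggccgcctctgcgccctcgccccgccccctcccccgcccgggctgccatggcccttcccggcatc
Pomp: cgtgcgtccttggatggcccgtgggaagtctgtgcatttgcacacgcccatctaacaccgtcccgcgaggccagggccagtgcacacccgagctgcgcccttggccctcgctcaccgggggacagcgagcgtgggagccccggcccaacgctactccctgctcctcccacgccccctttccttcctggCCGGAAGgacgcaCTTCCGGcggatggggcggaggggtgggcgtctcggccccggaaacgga

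Promoters were found for 32 of the 38 listed genes, in 34 windows of this length, and not for Psmb1, Psmb2, Psmb7, Psmc3, Psmd3 and Psmd7. CCGGAAG stood in 12 of the 34 windows (35.3%), against 6.91% of all 32851 windows and 15.3% of the 8289 windows of genes at least as bright as the dimmest member. It was found in 3 of 5 ATPase genes (Psmc1, Psmc2 and Psmc6), in 3 of 6 lid genes (Psmd6, Psmd11 and Psmd12), in Psmd2, Psmd4, Psme3 and Psme4, and in the core in Psma6 alone. The log2 differences of the 11 measured members with this motif ran from -0.11 to 0.059 with a median of -0.0011, and those of the 20 with a promoter and without it from -0.11 to 0.11 with a median of 0.020. TGACNNNGC stood in 6 windows (17.6% against 10.2% of all and 11.6% of those of genes as bright). These were windows of Adrm1, Psmb5, Psmb6, Psmc6, Psmd9 and Psmd12. CCAAT was in 13 (38.2% against 33.8% of all and 35.6% of those of genes as bright). The interferon-stimulated element was in 3 (8.82% against 2.98% and 2.41%), those of Psmb3, Psmd4 and Psmd9. A match of letters is a description and does not show that a factor binds there.

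The alpha ring, whose subunits form the gate of the core, held members with differences in both directions, among them Psma2, the highest of all members. Psma1 had log2 signals of 12.22, 12.17 and 12.13 on the MTT and 12.28, 12.31 and 12.26 on the MPC arrays. All 3 MTT arrays were below the MPC arrays, at a log2 difference of -0.11 (SE 0.037, adjusted p = 0.139 by limma). Psma2 had signals of 11.39, 11.33 and 11.34 in MTT and 11.18, 11.30 and 11.25 in MPC cells. Here all MTT arrays were above the MPC arrays, by 0.11 on the log2 scale (SE 0.041, adjusted p = 0.179 by limma). Psma2 is the only measured member on chromosome 13, where 284 of the 299 genes as bright as the members had a positive log2 difference, 201 passed limma's test as higher in MTT cells, and the median was 0.20. Whether the position of Psma2 has a part in its difference was not tested. The other 5 alpha genes had log2 differences between -0.072 (Psma4) and 0.028 (Psma3), and in each the groups overlapped. In the beta ring the largest absolute difference was that of Psmb1, a non-catalytic subunit, which read 11.52, 11.60 and 11.53 in MTT and 11.67, 11.61 and 11.59 in MPC cells. One MTT array lay above the lowest MPC array, and the log2 difference was -0.072 (limma adjusted p = 0.346). Over the 14 core genes the median log2 difference was -0.0067.

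Of the ATPases, which unfold substrates and open the gate, Psmc6 had log2 signals of 11.23, 11.31 and 11.22 in MTT and 11.35, 11.40 and 11.35 in MPC cells. The groups did not overlap, and its log2 difference of -0.11 (SE 0.037, adjusted p = 0.12 by limma) had the smallest p of all members. The other 5 ATPase genes, Psmc1 to Psmc5, were between -0.039 (Psmc2) and 0.044 (Psmc4), and the median of the ring was -0.021. Psmd1, the scaffold subunit of the base, read 13.20, 13.21 and 13.24 in MTT and 13.29, 13.29 and 13.30 in MPC cells. Its MTT arrays were all below the MPC arrays, at a log2 difference of -0.076 (limma adjusted p = 0.218). Psmd2, the other scaffold, and Psmd4, a ubiquitin receptor, had differences of -0.027 and 0.059.

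The lid, which carries the deubiquitinase Psmd14, had no member at an unadjusted p under 0.05 (20.5% of all genes and 28.9% of those as bright) and none whose arrays separated the lines (27.2% and 41.3%). Psmd3, a structural subunit, had the largest difference, with log2 signals of 11.32, 11.27 and 11.27 in MTT and 11.28, 11.18 and 11.10 in MPC cells. A single MPC array reached the MTT range, and the log2 difference was 0.10 (95% interval -0.013 to 0.22, limma adjusted p = 0.299). Psmd14 itself read 12.49, 12.43 and 12.39 in MTT and 12.43, 12.44 and 12.40 in MPC cells, a log2 difference of 0.012. The median over the 8 lid genes was 0.0086. Among the chaperones that assemble the base, Psmd9 read 9.20, 9.21 and 9.17 in MTT and 9.09, 9.17 and 9.12 in MPC cells. The groups did not overlap, though the lowest MTT and highest MPC array share the digits printed, at a log2 difference of 0.064 (limma adjusted p = 0.349). Psmd5 and Psmd10 (gankyrin) had differences of 0.023 and -0.018. Psmf1, a proteasome inhibitor, read 11.08, 11.06 and 10.96 in MTT and 11.00, 10.97 and 10.93 in MPC cells, with overlapping groups and a log2 difference of 0.068 (limma adjusted p = 0.431). The activators Psme3 and Psme4 were at 0.022 and -0.0011.

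**Figure D2:**
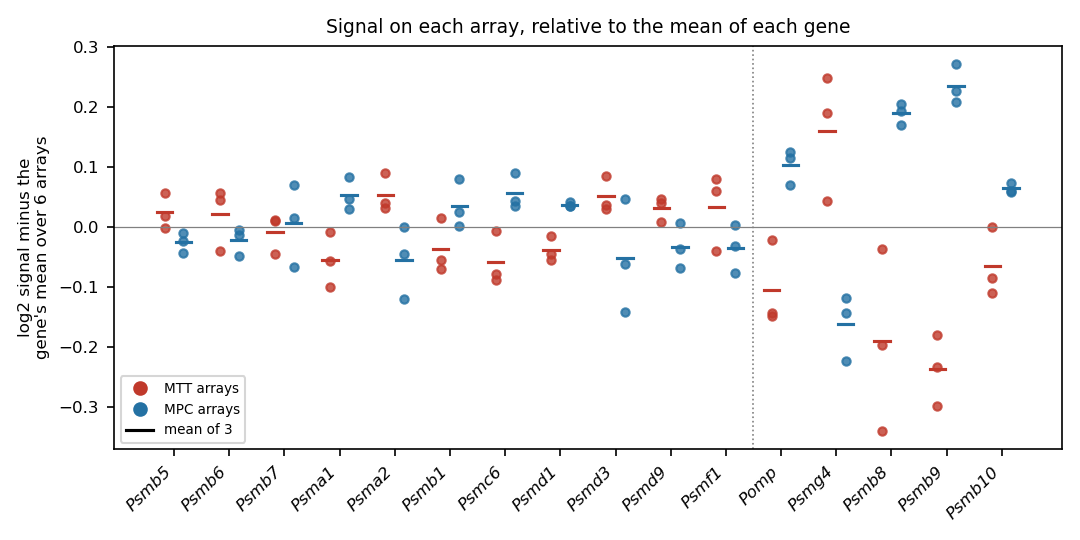
log2 signal on each array minus the mean of that gene over the 6 arrays (vertical axis) for 11 proteasome members, left of the dotted line, and 5 assembly factors and inducible subunits, right of it. Points are arrays (MTT red, MPC blue) and bars are means of 3. Psmb9, Psmb8 and Pomp are lower and Psmg4 higher on all 3 MTT arrays, and the mean differences of the members are at most 0.11 in size.

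The members also varied between arrays of the same line. The array MTT 3 gave the lowest of the 3 MTT signals for 27 of 37 members, against 32.9% of all genes tested, and MTT 1 gave the highest for 23, also against 32.9% of all genes. Among MPC arrays, MPC 3 gave the lowest signal for 23 of the 37, against 35.7% of all genes. The mean deviation of the members from their own means over the 6 arrays was 0.027 on MTT 1, 0.0097 on MTT 2, -0.034 on MTT 3, 0.0068 on MPC 1, 0.012 on MPC 2 and -0.022 on MPC 3 (log2 scale), and that of all genes stayed between -0.0069 and 0.011. On MTT 3 the alpha ring and the ATPases deviated most, by -0.056 and -0.050, and on MPC 3 the lid, by -0.053. Both ranges over arrays of a line were larger than the mean log2 difference between the lines over the members, 0.0019. The cause was not tested.

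**Figure D3:**
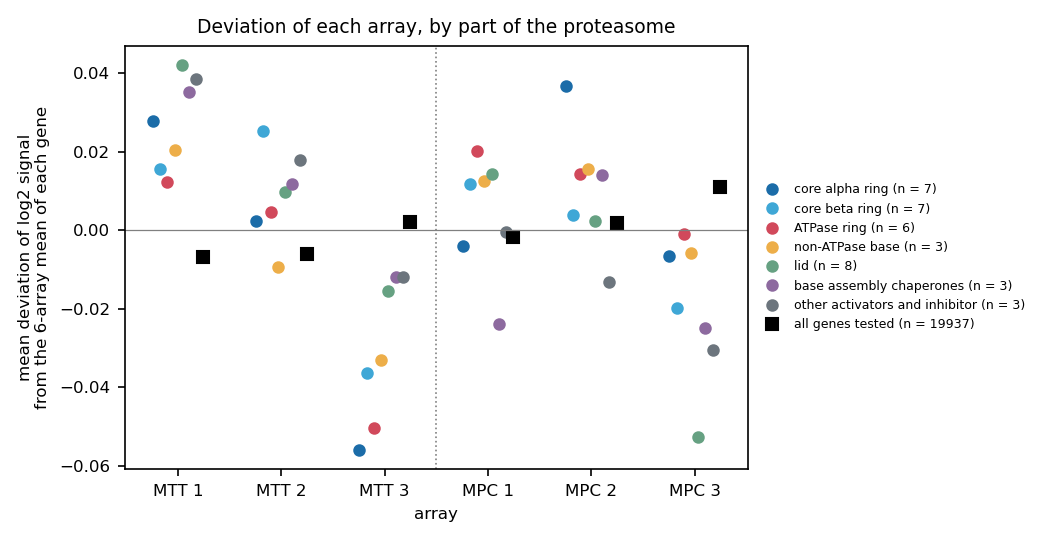
Mean deviation of log2 signal from the 6-array mean of each gene (vertical axis) on each array (horizontal axis), for 7 parts of the proteasome (coloured circles) and all 19937 genes tested (black squares). All 7 parts lie below 0 on MTT 3 and on MPC 3, and above 0 on MTT 1.

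For 5 members the array holds several probe sets under the same symbol: Psma3 has 3, and Psma5, Psmb3, Psmc1 and Psmd2 have 2 each. On this platform probe sets are numbered in runs by chromosome, and for Psma3, Psma5 and Psmc1 the brightest probe set was numbered among those of a chromosome other than the gene's own (6, 10 and 16 in place of 12, 3 and 12). Whether these probe sets also read a copy of the gene elsewhere was not tested. The probe set of Psma3 numbered on its own chromosome 12 had a mean log2 signal of 11.13 in MTT and 11.24 in MPC cells, a difference of -0.11 (limma adjusted p = 0.258 over all probe sets), where the brightest gave 0.028. For Psma5 that probe set gave 0.0091 in place of -0.055, and for Psmc1 0.016 in place of -0.036. With own-chromosome probe sets throughout, a choice made after seeing the data, 0 of 37 members passed.

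The genes that assemble, feed and regulate the proteasome included some that passed the test. The list was chosen with earlier results of these data known, so its counts describe it and are not a test. Of 48 such genes listed, 40 were measured. Of the 40, 6 passed limma's test, where 7.87% of all genes and 11.6% of those as bright as the members did. There were 3 higher (3.93% of all genes were) and 3 lower (3.94%) in MTT cells. The signals of the lines did not overlap for 20 of the 40 (50%), against 27.2% of all genes and 41.3% of those as bright as the members. Of the 40, 35 lay above the median signal. Of the 5 chaperones that assemble the core, Pomp, which directs the beta ring, had log2 signals of 10.59, 10.71 and 10.58 on the MTT and 10.85, 10.86 and 10.80 on the MPC arrays. The MTT arrays were all below, and Pomp fell by 0.21 on the log2 scale (SE 0.044, adjusted p = 0.0252 by limma). It no longer passed when MTT replicate 1 or 3 or MPC replicate 1 or 2 was left out (adjusted p 0.0783 to 0.0981 by limma), or without moderation of the variances. Its promoter, shown above, holds CCGGAAG on each strand.

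Psmg4, which helps to build the alpha ring, went the other way, with signals of 10.09, 10.03 and 9.89 in MTT and 9.70, 9.72 and 9.62 in MPC cells. All MTT arrays were above the MPC arrays, by 0.32 on the log2 scale (SE 0.057, adjusted p = 0.0121 by limma). It did not pass with MTT replicate 2 left out (adjusted p = 0.0536 by limma) or without moderation of the variances (0.106). Psmg4 lies on chromosome 13, as do both other linked genes that rose. Ubqln1, a shuttle that carries ubiquitylated proteins to the proteasome, read 11.56, 11.57 and 11.57 in MTT and 11.37, 11.33 and 11.26 in MPC cells. The MTT arrays were nearly equal and all higher, and Ubqln1 rose by 0.25 on the log2 scale (adjusted p = 0.00639 by limma), also in each fit without 1 array. Faf2, an adaptor of the unfoldase Vcp, read 11.37, 11.45 and 11.45 in MTT and 11.22, 11.21 and 11.27 in MPC cells. It rose by 0.19 with no overlap (adjusted p = 0.019 by limma), but did not pass with MTT replicate 2 or 3 or MPC replicate 1 or 2 left out (adjusted p 0.0646 to 0.0830 by limma) or without moderation of the variances (0.0725). These 3 were all the linked genes measured on that chromosome, and their differences stand beside a median of 0.20 for its genes as bright as the members. Psmg2, the partner of Psmg1, was at -0.14 (adjusted p = 0.0547 by limma) and passed under a mean-variance trend.

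The inducible catalytic subunits, which replace the constitutive ones in the immunoproteasome, were lower in MTT cells for Psmb9 and Psmb8. Psmb9 read 10.65, 10.70 and 10.58 in MTT and 11.09, 11.15 and 11.11 in MPC cells, and Psmb8 read 9.85, 9.69 and 9.55 in MTT and 10.09, 10.08 and 10.06 in MPC cells. In both genes all MTT arrays were below all MPC arrays, and they fell by 0.47 and 0.38 on the log2 scale (adjusted p = 0.00033 and 0.0139 by limma). Psmb9 passed in every fit run, while Psmb8 did not with MTT replicate 2 left out (adjusted p = 0.0542 by limma) or without moderation of the variances. Psmb10 read 9.30, 9.22 and 9.19 in MTT and 9.38, 9.36 and 9.36 in MPC cells, again without overlap, but its log2 difference, -0.13, did not pass the test (adjusted p = 0.0895 by limma). It passed under a mean-variance trend (0.0462) and among genes above the median signal (0.0220). To compare each with the subunit it replaces, their log2 signals were subtracted within each array. From MPC to MTT cells the value of Psmb9 minus Psmb6 changed by -0.52 (-0.49 ± 0.031 in MPC and -1.01 ± 0.021 in MTT cells, SD, n = 3), that of Psmb8 minus Psmb5 by -0.43 and that of Psmb10 minus Psmb7 by -0.12. The arrays of the lines did not overlap for the first and second pair. An exact permutation test, two-sided, gave p = 0.1, 0.1 and 0.2 (0.15, 0.15 and 0.2 adjusted over 3 pairs), where 0.1 is the smallest p that 3 arrays against 3 allow, so this test cannot pass the threshold. Psme1 and Psme2, of the inducible activator, were at -0.0070 and 0.066, Psma8 at -0.15 and Psmb11 at 0.037, none past the threshold. Psma8 and Psmb11 were dim, with mean log2 signals of 6.05 and 6.92, below the median of 8.28 for genes tested.

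None of 8 measured genes for proteins bound to the proteasome passed limma's test, while 5 were lower and 1 higher in MTT cells at an unadjusted p under 0.05 (20.5% of all genes and 28.9% of those as bright as the members), and the lines did not overlap for 7 (27.2% and 41.3%). Their median log2 difference was -0.10. Zfand5, a proteasome activator, was at -0.14 (limma adjusted p = 0.0536) and lies on chromosome 19, where the median of genes as bright as the members was -0.11. Ecpas, which tethers core and regulatory particle, was at -0.11, and Akirin2, which brings proteasomes into the nucleus, and the ligase Ube3c at -0.10 each. Uchl5, a deubiquitinase, was at 0.087. Sem1, a lid subunit kept in this list and not among the 8 lid members above, was at -0.024. Under a mean-variance trend Zfand5, Ecpas, Akirin2 and Ube3c passed. Of 8 genes for the transcription of proteasome genes none passed. Nfe2l1, the factor that raises proteasome genes when proteasome activity falls short, read 11.83, 11.86 and 11.92 in MTT and 11.76, 11.75 and 11.72 in MPC cells. All MTT arrays were above, at a log2 difference of 0.12 (95% interval 0.039 to 0.21, limma adjusted p = 0.0915), and Nfe2l1 passed under a mean-variance trend (adjusted p = 0.0105). Its partner Maff was at 0.14 (limma adjusted p = 0.0979), with signals below the median of all genes, and Nfe2l2 at -0.070. Of the 11 shuttles and Vcp cofactors measured, those other than Ubqln1 and Faf2 did not pass. Vcp itself was at -0.038.

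**Figure D4:**
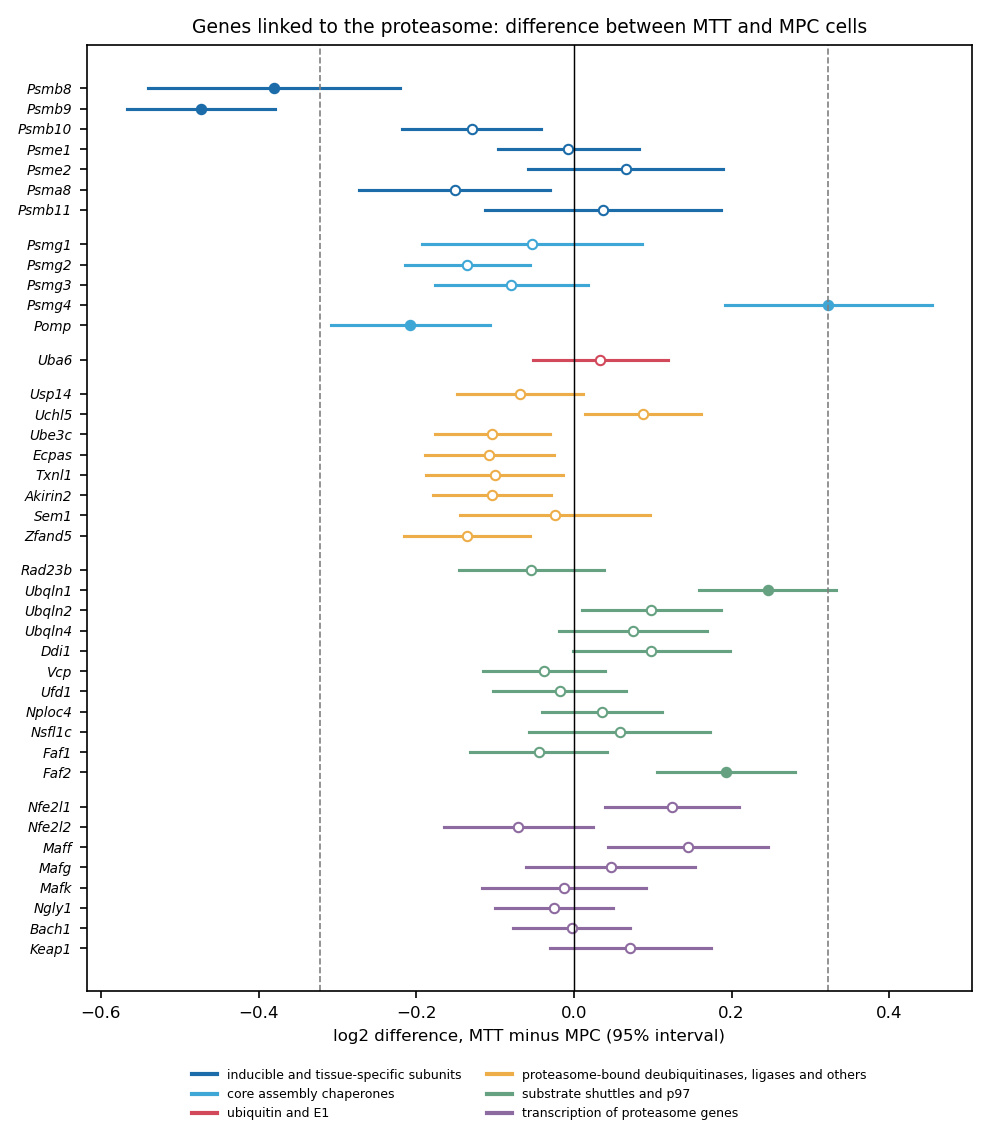
log2 difference between MTT and MPC cells (horizontal axis, MTT minus MPC) of 40 genes linked to the proteasome (vertical axis), with 95% intervals from limma, coloured by list. Filled points passed the test (Psmb8, Psmb9 and Pomp lower, Psmg4, Ubqln1 and Faf2 higher), and dashed lines mark a fold of 1.25.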

How the data were processed

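RNA of 3 MTT and 3 MPC samples was measured on Affymetrix Mouse Gene 1.0 ST arrays. The authors deposited log2 values after RMA, and the submitters' notes name Affymetrix Expression Console; no source used here gives a version. Quantile normalization in RMA sets all arrays to 1 distribution, so a shift common to all genes cannot be seen, and array signals of different genes are not comparable.

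Computed here were differences in R 4.3.3 with limma 3.58.1 (lmFit, eBayes, two-sided), with Benjamini-Hochberg adjustment over the 19937 genes that the platform annotation names by exactly 1 symbol, and permutation tests and figures in Python 3.11.15 with scipy 1.17.1 and matplotlib 3.10.9. The methods used analysis of variance; its form was run as an alternative without moderation of the variances. The model was tested on simulated data. There, limma's test found 50 of 100 genes given a log2 shift of 0.25, and 97 of 100 given a shift of 1. Among its 150 calls 3 were false. Many small changes can therefore go uncalled, and shifts below 0.25 were not simulated. The shifted genes were drawn from all genes tested, whose median SD within a line was 0.054, against 0.038 for the members. The share found is therefore not that for the members, which was not simulated. Alternatives were a mean-variance trend, a block for the replicate number, other uses of probe sets, a filter on dim genes, other normalizations and leaving out each array; own-chromosome probe sets and leaving out chromosomes 13 and 19 were added after the data were seen. The number of arrays limits the precision. Named genes were the catalytic subunits, in each subcomplex the member with the largest absolute difference and that with the smallest p, linked genes past the threshold, Nfe2l1, Pomp, Psmb8, Psmb9 and Psmb10; other members have single values. Psmd14 and the linked genes given with single values were picked after their values were seen. Members and lists were chosen with earlier results of these data known.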

Additional observations from a re-analysis of the deposited data

How the results depend on the processing

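No proteasome member passed in the main comparison or in 14 of 16 alternatives, the exceptions being a mean-variance trend, with 4, and genes above the median signal, with 2. These exceptions were the fits in which most genes passed, 2416 of 19937 and 2207 of 9968. Fewer genes than in the main comparison passed when an array or the moderation was left out. The count of 14 therefore does not measure how firm the result is. The median log2 difference of the members lay between -0.012 and 0.017 over the alternatives and changed sign. Each shift was below 0.038, the median SD of single members within a line. The spread of the median itself was not computed. Against 6 linked genes in the main comparison, 3 passed without moderation of the variances (Psmb9, Ubqln1 and Ube3c), 13 with the trend, 14 above the median signal, 3 to 7 without 1 array (3 without MTT replicate 2), and 3 without chromosomes 13 and 19, which removes the genes that rose. Over all genes 1569 passed, 824 without moderation, 2416 with the trend and 891 to 1276 without 1 array (924, 891 and 994 without MTT replicate 1, 2 or 3, and 1004 without MPC replicate 2). With the replicate number as a block 0 members, 6 linked genes and 1501 genes passed. Deviations of same-numbered arrays correlated at 0.12, 0.074 and 0.25. Differently numbered arrays were not compared, so these values cannot tell whether the numbers pair the samples. The causes were not tested. The within-array differences of inducible and constitutive subunits kept their direction in every alternative run on them. Most of these could not have turned it. Median centring cancels within an array, and averaging probe sets left these values unchanged. Where the lines do not overlap, leaving out an array cannot reverse the direction. All 37 members but 35 of 40 linked genes lay above the median signal of the genes tested.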
